A study of Mus musculus with 4 samples.

Results

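The genes described here are 10 components of Toll-like receptor signaling, chosen by symbol from the 22609 gene symbols of the count files. They comprise the receptor genes Tlr1, Tlr2, Tlr3, Tlr4, Tlr7 and Tlr9, the co-receptor gene Cd14, the genes of the small secreted partner proteins Ly86 (MD-1) and Ly96 (MD-2), and the adaptor gene Myd88. All 10 passed the filter on low counts and were tested. RNA was sequenced from the hippocampus of female mice that had been ovariectomized 1 week before surgery. Both common carotid arteries were closed for 20 min, and tissue was taken after 24 h of reperfusion. The 2 libraries labelled FLOX-control came from mice with a loxP-flanked aromatase gene (Cyp19a1), and the 2 libraries labelled GFAP-ARO-KO from mice in which Cre, driven by the promoter of the astrocyte gene Gfap, was designed to delete it in astrocytes. All 4 libraries followed ischemia and ovariectomy, without a sham group, so a difference present before ischemia cannot be told apart from a different response to it. The sources used here give neither the age of the mice nor whether a library came from 1 animal, so p-values measure the spread between these libraries only.

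Toll-like receptors recognize microbial molecules and molecules released from injured tissue. TLR1, TLR2 and TLR4 act at the cell surface, whereas TLR3, TLR7 and TLR9 sense nucleic acids inside endosomes. CD14 hands ligands to TLR2 and TLR4, MD-2 binds lipopolysaccharide together with TLR4, and MD-1 pairs with the TLR-like receptor CD180. Most of these receptors signal through MyD88 to NF-kappaB and inflammatory cytokines, whereas TLR3 uses TRIF in place of MyD88. In the brain they are known mainly from microglia, the resident macrophages.

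Each library held 27930696 to 34878375 reads assigned to genes, and levels are given as CPM, which scales reads to library size, here after TMM adjustment. A count of 0 would allow up to 0.106 CPM in the shallowest library. Replicates varied beyond counting error: chi-square divided by its degrees of freedom was 14.2 for the 2 controls and 26.9 for the 2 knockouts. Reads of Cyp19a1 (3 and 2 in controls, 1 and 9 in knockouts) were too few to check the genotype labels. Tissue markers were present: 7 genes of hippocampal neurons summed to 5753 and 6535 CPM in controls and 5405 and 5445 CPM in knockouts. Meningeal markers (8 genes) summed to 103, 149 and 113 CPM in the controls and the first knockout library but to 445 CPM in the second knockout library, which therefore stands apart.

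Promoter sequence was looked up for the members because several of them fell together. The RefSeq table (GRCm38.p6) held 7 start sites of 6 members, and none for Tlr4, Tlr7, Cd14 and Ly96. The 250 bases before each start were searched on both strands for the PU.1/ETS core GAGGAA, the interferon response element core, the AP-1 site TGANTCA and the kappaB consensus. Shown in capitals are matches before the RefSeq starts of Tlr2 (kappaB) and Myd88 (interferon response core). In mm9 the Myd88 window begins at 119249137, inside the gene as GENCODE annotates it (119245052 to 119250529, minus strand). The Myd88 stretch is thus intragenic by that annotation. Ly86 held none of the 4 motifs in its window. Stretches that GENCODE annotates as exon are left out. The sequences run 5′ to 3′ on the gene's strand, from chr3:83841768-83841858 (minus) for Tlr2, chr9:119340042-119340268 (minus) for Myd88 and chr13:37345095-37345344 (plus) for Ly86.
Tlr2: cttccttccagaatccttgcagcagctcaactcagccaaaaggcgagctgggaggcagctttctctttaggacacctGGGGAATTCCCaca
Myd88: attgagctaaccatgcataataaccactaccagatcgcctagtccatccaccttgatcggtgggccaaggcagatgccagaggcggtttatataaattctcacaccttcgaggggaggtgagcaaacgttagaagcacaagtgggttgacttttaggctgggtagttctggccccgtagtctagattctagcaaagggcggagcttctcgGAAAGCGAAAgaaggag
Ly86: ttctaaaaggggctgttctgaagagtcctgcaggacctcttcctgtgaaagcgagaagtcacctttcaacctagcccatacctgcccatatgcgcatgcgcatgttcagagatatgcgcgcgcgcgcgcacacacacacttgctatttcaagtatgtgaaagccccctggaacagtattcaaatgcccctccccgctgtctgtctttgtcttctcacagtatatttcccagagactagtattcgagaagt

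Among all 32851 promoter windows of the same length, the kappaB consensus was found in 3.90%, the interferon response core in 2.98%, the AP-1 site in 6.75% and the PU.1/ETS core in 23.3%. Besides Tlr2, the window of Tlr3 held a kappaB match, at -211, within bases that GENCODE annotates as exon. The PU.1/ETS core was matched before 1 of the 2 starts of Tlr1 and before Tlr9, and the AP-1 site before Tlr9. The 2 kappaB matches of Tlr2 overlap. A match is a description of the letters and not a bound site, and its part in any change was not tested.

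In the knockout, 4 of the 10 genes fell, namely Cd14, Ly86, Tlr2 and Tlr3, Tlr7 rose, and 5 did not pass an adjusted p of 0.05 in edgeR's quasi-likelihood test with Benjamini-Hochberg adjustment over all genes. Over all 15011 genes tested, 11% were called lower and 9.39% higher. Cd14 was 3.31-fold, Ly86 2.92-fold, Tlr2 2.80-fold and Tlr3 1.65-fold lower, whereas Tlr7 was 2.92-fold higher. The median log2 fold change of the 10 genes was -0.66, against 0.00 for all genes tested. In 7 of the 10 both knockout values lay below both control values and in 1 above them, which held for 32.8% and 32% of all genes tested. Without the first control library 1 of the 10 was called lower (Ly86) and 1 higher, beside 4.1% and 2.82% of all genes, and without the second 2 and 1, beside 3.8% and 2.25%. Without the first knockout library 5 and 1 were called, beside 16.3% and 15.8%, and without the second 4 and 1, beside 9.69% and 8.57%. Fewer cells of a type and less RNA per cell cannot be told apart in bulk tissue.

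**Figure D1:**
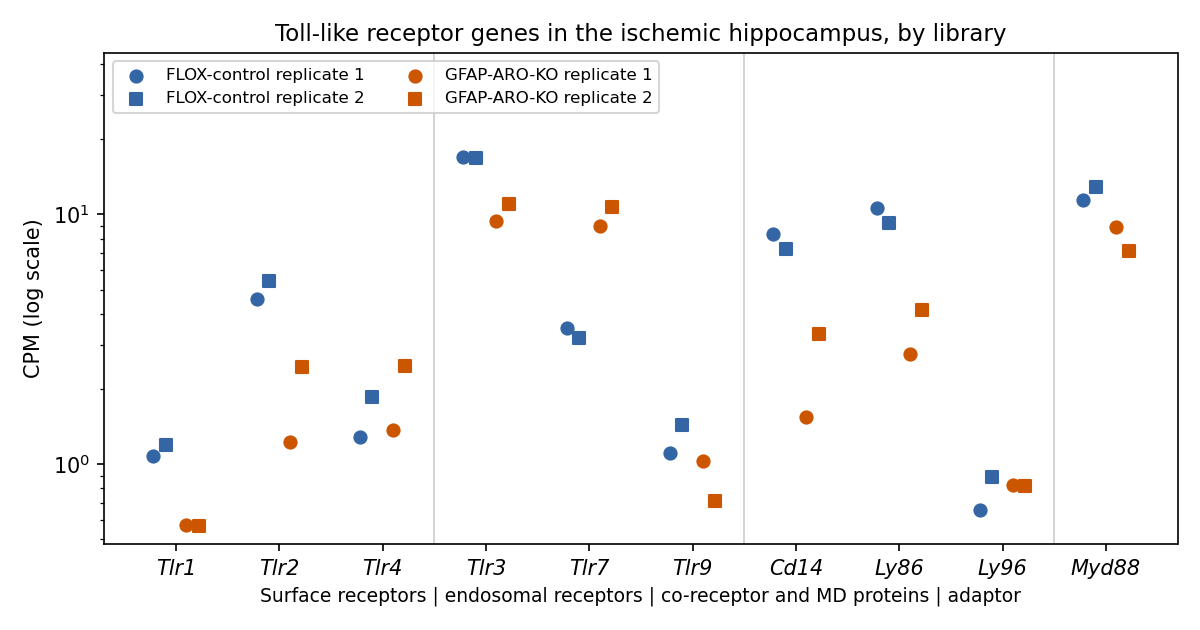
CPM on a log scale (y axis) of the 10 genes (x axis, ordered by role) in each of the 4 libraries, FLOX-control in blue and GFAP-ARO-KO in orange. Tlr7 is the gene whose orange points (9.0 and 10.7 CPM) both lie above the blue ones (3.49 and 3.21 CPM). Tlr2, Tlr3, Cd14 and Ly86 lie lower in both knockout libraries, as do Tlr1, Tlr9 and Myd88, which did not pass.

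Among the surface receptors, Tlr2 (ENSMUSG00000027995.9, chromosome 3, 83640195 to 83645689, minus strand, mm9) encodes the receptor for bacterial lipopeptides, which also senses matrix fragments. It stood at 4.60 and 5.42 CPM in controls and at 1.22 and 2.45 CPM in knockouts. Both knockout libraries were below both controls, the first more so than the second. Tlr2 fell by 1.49 ± 0.32 (SE, log2 scale; adjusted p = 0.0188). The call was lost without the first (adjusted p = 0.0548) or the second control library (0.0952).

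Tlr1, the partner of TLR2 for triacylated lipopeptides, was at 1.08 and 1.19 CPM in controls and 0.570 and 0.567 CPM in knockouts. The groups did not overlap, but the 16 to 39 reads per library gave a log2 fold change of -0.99 ± 0.36 that did not pass (adjusted p = 0.0884). Of the 50-base windows of its transcript found in the genome, 18.1% occur at several places, and 454 windows are shared with transcripts of Tlr6, so the counts of both genes are uncertain. Reads of Tlr6, the other partner of TLR2, numbered 18 and 19 in controls against 8 and 10 in knockouts (log2 fold change -0.96 ± 0.48, adjusted p = 0.190).

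The lipopolysaccharide receptor gene Tlr4 (chromosome 4, 66488618 to 66591318, plus strand, mm9) was at 1.28 and 1.87 CPM in controls and 1.37 and 2.48 CPM in knockouts. The groups overlapped, and the log2 fold change of 0.26 ± 0.38 did not pass (adjusted p = 0.660). It turned to -0.19 without the second knockout library, where Tlr4 and the meningeal markers were highest. The part of those markers in the level of Tlr4 was not tested.

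The endosomal receptors went in different directions. Tlr7 (ENSMUSG00000044583.7, chromosome X, 163742861 to 163768490, minus strand, mm9), the sensor of single-stranded RNA, was at 3.49 and 3.21 CPM in controls and at 9.0 and 10.7 CPM in knockouts. Behind these values stand 117 and 105 control reads and 316 and 301 knockout reads, and both knockout libraries were well above both controls. Tlr7 rose by 1.55 ± 0.20 (adjusted p = 0.00381). It remained called with each library left out in turn, at log2 fold changes from 1.43 to 1.67. None of the 50-base windows of its transcripts was found at more than 1 place in the genome.

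No gene overlaps Tlr7 in the annotation, and its neighbors were looked at after its rise was seen. Prps2, a phosphoribosyl pyrophosphate synthetase gene that lies 15764 bases away on the same strand, was at 39.9 and 34.9 CPM in controls and 25.7 and 30.2 CPM in knockouts (log2 fold change -0.42 ± 0.13, adjusted p = 0.0620). The related receptor gene Tlr8, on the same chromosome, had 0 and 2 control reads and 2 and 2 knockout reads and was not tested.

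Tlr3 (ENSMUSG00000031639.5, chromosome 8, 46481019 to 46495962, minus strand, mm9), the sensor of double-stranded RNA, is known from astrocytes as well as microglia. It was at 17.0 and 16.8 CPM in controls and 9.46 and 11.1 CPM in knockouts. The 2 controls lay close together and both knockouts were lower. Tlr3 fell by 0.72 ± 0.15 (adjusted p = 0.0173), a call lost without the first (adjusted p = 0.111) or the second control (0.104). Of 6 astrocyte markers 2 fell and 4 did not pass, beside 11% called lower over all genes tested. Gfap fell by 0.94 ± 0.09 (adjusted p = 0.00151) and Aqp4 by 1.40 ± 0.16 (0.00364). The sum of the 6 markers was 5255 and 5547 CPM in controls and 4157 and 4393 CPM in knockouts, and its part in the fall of Tlr3 was not tested. Tlr9, the receptor for unmethylated CpG DNA, was at 1.11 and 1.44 CPM in controls and 1.03 and 0.709 CPM in knockouts. Its groups did not overlap, but 20 to 47 reads per library gave a log2 fold change of -0.52 ± 0.36 that did not pass (adjusted p = 0.327).

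Of the co-receptor and partner genes, Cd14 and Ly86 fell and Ly96 did not pass. Cd14 (ENSMUSG00000051439.6, chromosome 18, 36884728 to 36886390, minus strand, mm9) was at 8.36 and 7.28 CPM in controls and at 1.54 and 3.33 CPM in knockouts. It fell by 1.73 ± 0.32 (adjusted p = 0.0119), by 2.33 without the second and by 1.23 without the first knockout library. Without the first control library it did not pass (adjusted p = 0.0622). The second knockout library, with the higher value, is the one with high meningeal markers, and the part of those markers was not tested.

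Ly86 (ENSMUSG00000021423.5, chromosome 13, 37437214 to 37510905, plus strand, mm9) was at 10.6 and 9.27 CPM in controls and at 2.76 and 4.15 CPM in knockouts. Both knockout values lay well below both controls. Ly86 fell by 1.54 ± 0.23 (adjusted p = 0.00606) and remained called with each library left out in turn, at log2 fold changes from -1.84 to -1.26. Ly96 was at 0.657 and 0.887 CPM in controls and 0.826 and 0.816 CPM in knockouts, from 22 to 29 reads. Its groups overlapped, the log2 fold change of 0.09 ± 0.37 did not pass (adjusted p = 0.885), and the sign turned without the first control library (-0.10).

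Myd88 (ENSMUSG00000032508.7, chromosome 9, 119245052 to 119250529, minus strand, mm9), the adaptor shared by most of the receptors, was at 11.4 and 12.8 CPM in controls and 8.89 and 7.16 CPM in knockouts. The groups did not overlap, and the log2 fold change of -0.59 ± 0.18 just missed the threshold (adjusted p = 0.0524). Without the first knockout library it passed (log2 fold change -0.76, adjusted p = 0.0104). Its exons share 67 bases with those of Acaa1a, a peroxisomal thiolase gene on the other strand. Acaa1a was at 35.8 and 30.6 CPM in controls and 19.4 and 15.5 CPM in knockouts. No source used here states whether counting used strand, so reads of these 67 bases cannot be assigned to either gene.

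**Figure D2:**
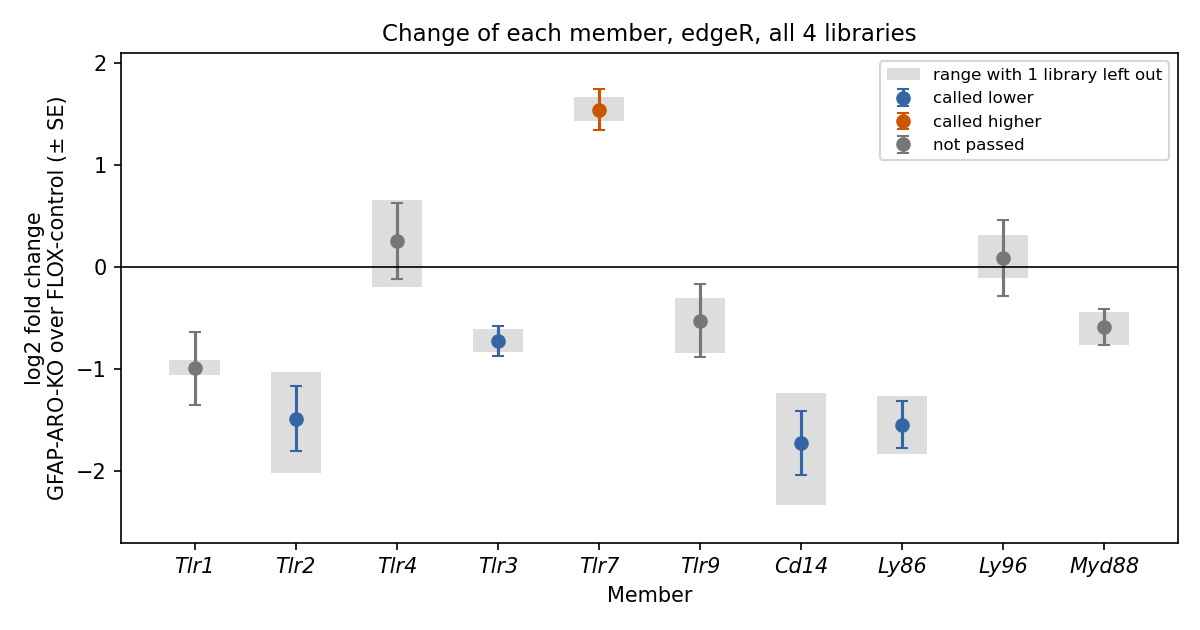
Log2 fold change of GFAP-ARO-KO over FLOX-control (y axis) of each of the 10 genes (x axis), as points with bars of 1 SE from edgeR on 4 libraries, over grey boxes that span the values with 1 library left out. Tlr7 is the point at 1.55, Cd14 lies lowest at -1.73, and the boxes of Tlr4 and Ly96 cross 0.

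Levels of different genes were compared per kb of merged exon. In the controls the order was Ly86 (9.97 CPM per kb), Cd14 (4.98), Myd88 (4.71), Tlr3 (3.84), Tlr2 (1.66), Ly96 (1.28), Tlr7 (0.822), Tlr1 (0.428), Tlr9 (0.366) and Tlr4 (0.284). Neighbors in that order overlapped for Cd14 and Myd88, for Tlr1 and Tlr9, and for Tlr9 and Tlr4. In the knockouts Tlr7 moved from place 7 to place 3, at 2.41 CPM per kb. It then stood behind Ly86 (3.47) and Myd88 (3.12), overlapped with Tlr3 (2.33) and was followed by Cd14 (1.55). The receptor gene with the highest level per length was thus Tlr3 in the controls, whereas in the knockouts Tlr7 and Tlr3 could not be ranked.

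Markers of microglia fell as well. Of 15 markers 13 fell and 2 did not pass, beside 11% called lower over all genes tested. Their log2 fold changes had a median of -0.90 and ranged from -0.25 (Trem2) to -1.97 (Itgam). The 15 markers summed to 625 and 710 CPM in the controls and to 339 and 355 CPM in the knockouts. The falls of Cd14 and Ly86 were exceeded by 3 of the 15 markers and the fall of Tlr2 by 4, whereas 12 markers had a lower log2 fold change than Tlr3.

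The reads of the 10 genes were also counted against the reads of these markers in the same library. Cd14 gave 13.4 and 10.2 reads per 1000 marker reads in controls against 4.54 and 9.39 in knockouts. Ly86 gave 17.0 and 13.0 in controls against 8.15 and 11.7 in knockouts. Tlr2 gave 7.36 and 7.62 in controls against 3.61 and 6.89 in knockouts. In these 3 genes both knockout libraries were below both controls, though the second knockout library lay close to the lower control. The same held for 2.58% of all genes tested, a share that is low because the marker sum itself was 1.93-fold lower.

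Relative to the marker reads, Tlr7 gave 5.59 and 4.52 reads per 1000 in controls against 26.6 and 30.1 in knockouts, a ratio of 5.60. Tlr3, Tlr4, Ly96 and Myd88 were also higher by this measure without overlap, as were 88.3% of all genes tested, since the marker sum itself was 1.93-fold lower. Tlr1 stayed between 1.60 and 1.72 reads per 1000 in all 4 libraries, and the values of Tlr9 overlapped. With 16 to 39 reads of Tlr1 per library, counts are too few to read that closeness as stability. These ratios have no test, and the part of microglial RNA content in the changes was not tested.

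**Figure D3:**
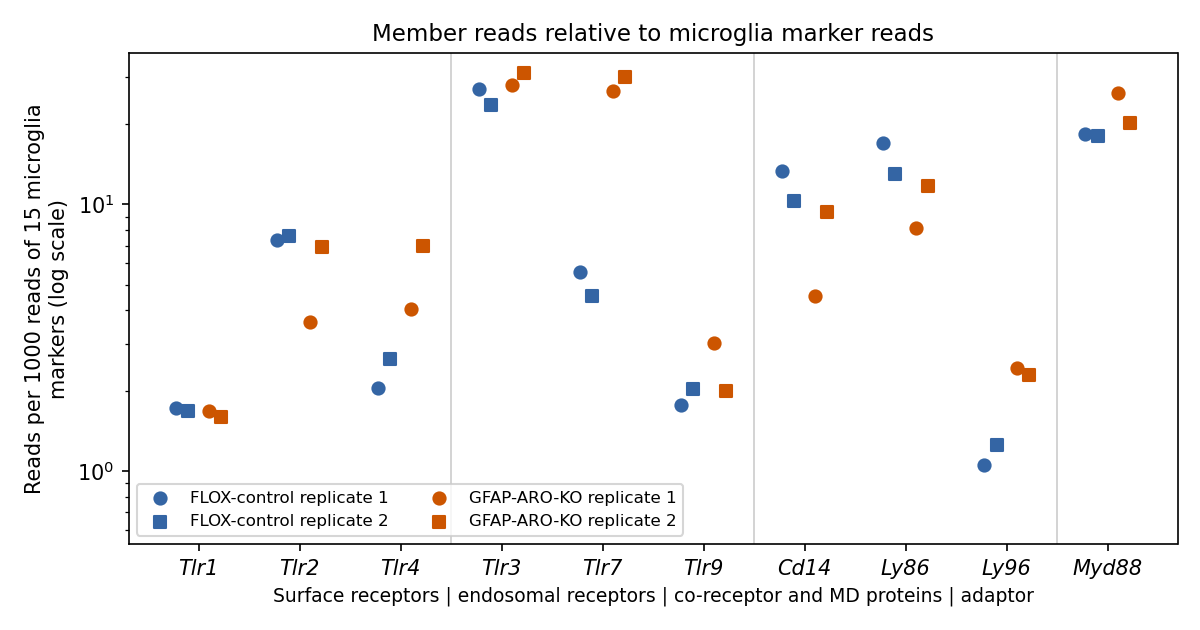
Reads of each of the 10 genes per 1000 reads of 15 microglia markers in the same library (y axis, log scale; genes on the x axis), FLOX-control in blue and GFAP-ARO-KO in orange. Tlr7 stands at 5.59 and 4.52 in controls but 26.6 and 30.1 in knockouts. Tlr1 stays between 1.60 and 1.72, from 16 to 39 reads per library, and Cd14, Ly86 and Tlr2 lie lower in both knockout libraries.

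Blood-derived immune cells left few reads. The 11 markers of monocytes and neutrophils summed to 1.03 to 1.44 CPM in every library, without a testable member, Camp being at 0 reads throughout. The 5 lymphocyte markers summed to at most 0.214 CPM. The 5 markers of border macrophages summed to 3.82 and 4.28 CPM in controls and 4.87 and 7.52 CPM in knockouts. Of the 3 that could be tested Lyve1 rose (1.5 ± 0.35, adjusted p = 0.0235), while Mrc1 (0.69 ± 0.53, adjusted p = 0.388) and Cd163 (-0.18 ± 0.44, adjusted p = 0.795) did not pass. Of 5 endothelial markers 1 fell (Flt1), 2 rose (Ly6c1 and Pecam1) and 2 did not pass. Over all genes tested 11% were called lower and 9.39% higher. The endothelial markers summed to 142 and 146 CPM in controls and 160 and 204 CPM in knockouts. The sums of border macrophage and endothelial markers were highest in the second knockout library, the one with high meningeal markers. The part of border macrophages and endothelium in the rise of Tlr7 was not tested.

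The other receptors and the proteins that fold or carry them gave 4 falls among 11 tested genes of 13, where 11% of all genes tested were called lower. They were Cd180, Cd36, Unc93b1 and Cnpy4, a chaperone-related gene near the threshold (log2 fold change -0.67 ± 0.20, adjusted p = 0.0481). Cd180, the partner of MD-1, was at 2.03 and 4.56 CPM in controls and 0.570 and 0.886 CPM in knockouts. The controls lay far apart, the second being the higher, and Cd180 fell by 2.2 ± 0.51 (adjusted p = 0.0267). Cd36, a scavenger receptor that assists TLR2, fell by 1.40 ± 0.35 (adjusted p = 0.0302). Unc93b1, which carries TLR3, TLR7 and TLR9 to endosomes, went from 15.1 and 13.7 CPM to 8.74 and 9.22 CPM. It fell by 0.68 ± 0.15 (adjusted p = 0.0212), in the direction of Tlr3 and opposite to Tlr7. The most abundant gene of the group was Hsp90b1, the chaperone gp96, with a log2 fold change of -0.33 ± 0.11 that did not pass (adjusted p = 0.0622) except with DESeq2 (0.0345). Without the first control Cd36 (adjusted p = 0.0542) and Unc93b1 (0.168) were not called, and without the second Cd180 (log2 fold change -1.50, adjusted p = 0.0915), Cd36 (0.165) and Unc93b1 (0.0988). Cd180 also missed the threshold without the first (0.113) or second knockout library (0.0668), and Cd36 without the first (0.0501). Exons of Cd180 share 182 bases with Mast4 on the other strand, so its reads are uncertain there.

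Most of the signaling genes downstream did not pass, nor did 11950 of all 15011 genes tested. Of 24 adaptors, kinases and transcription factors 4 fell and 20 did not pass, with a median log2 fold change of -0.12. The shares over all genes tested were 11% lower and 9.39% higher. Irak4, the kinase that MyD88 recruits first, went from 2.45 and 2.39 CPM to 0.798 and 1.03 CPM and fell by 1.42 ± 0.30 (adjusted p = 0.0177). Irf3, the factor that TRIF signaling activates, fell by 0.75 ± 0.17 (adjusted p = 0.0218), and Ikbkb, the kinase that marks NF-kappaB inhibitors for decay, by 0.57 ± 0.13 (adjusted p = 0.0219). The ubiquitin ligase gene Traf3 had the highest mean CPM over both groups and fell by 0.40 ± 0.11 (adjusted p = 0.0412). Per kb of exon Tbk1 stood higher, at 20.7 CPM in controls against 13.5 for Traf3. All 4 calls were lost without the first control library (adjusted p from 0.0850 for Irak4 to 0.103 for Ikbkb) and without the second (from 0.0817 for Irak4 to 0.279 for Traf3). Traf3 was also lost without the second knockout library (0.0982) and with no filter on low counts (0.0506). Exons of Irak4 share 395 bases with Twf1 and those of Irf3 88 bases with Bcl2l12, both on the other strand.

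Among 12 inhibitors of the pathway, 2 rose, 1 fell and 9 did not pass, beside 9.39% called higher and 11% lower over all genes tested. Tollip, which binds IRAK1 and dampens TLR2 and TLR4 signaling, was at 223 and 200.2 CPM in controls and 291 and 303 CPM in knockouts. It rose by 0.49 ± 0.10 (adjusted p = 0.0158). Tnip2, a partner of the ubiquitin-editing enzyme A20, rose by 0.64 ± 0.16 (adjusted p = 0.0313), while Ptpn6, the phosphatase SHP-1 of blood-derived cells and microglia, fell by 0.96 ± 0.24 (adjusted p = 0.0293). With the second control left out, Tollip (adjusted p = 0.126), Tnip2 (0.196) and Ptpn6 (0.217) were not called. Tnip2 also missed the threshold without the first control (0.0926) or the second knockout library (0.0596), and 195 exon bases of Ptpn6 overlap a transcript on the other strand.

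Of the genes that the pathway is known to induce, 14 of 20 could be tested, beside a share of 11% called lower over all genes tested. Of these 14 genes 5 fell (Ccl2, Ccl3, Ptgs2, Il1a and Il1b) and 9 did not pass. Their median log2 fold change was -1.33. Some of them, such as Ccl2, passed the filter on low counts only through the control reads, so that median can lean toward falls. It is therefore not set against the median of the 10 receptor and co-receptor genes. Ccl2, a chemokine gene, had 69 and 109 control reads but 1 and 3 knockout reads (log2 fold change -5.33 ± 0.63, adjusted p = 0.00263). The size of this fall rests on those few reads: leaving out the first knockout library gave a log2 value of -4.61 and leaving out the second gave -6.38, both past the threshold. Ccl3, another chemokine gene, had 47 and 87 control reads and 10 in each knockout library and fell by 2.67 ± 0.51 (adjusted p = 0.0131, but 0.0509 without the second control). Ptgs2, which encodes the prostaglandin-forming enzyme COX-2 and is also made by neurons, was the most abundant in mean CPM. It went from 59.5 and 63.3 CPM to 35.9 and 25.9 CPM and fell by 0.99 ± 0.16 (adjusted p = 0.00776). Without the second control Ccl2 and Ptgs2 remained called, whereas Ccl3, Il1a and Il1b did not. Exons of Il1a share 222 bases with Gm14023 and those of Il1b 25 bases with Gm14047, both on the other strand.

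Ligands released from the tissue itself showed no common direction. Of 8 tested among 10, 1 fell, 1 rose and 6 did not pass, beside 11% called lower and 9.39% higher over all genes tested. Tnc, which encodes the matrix protein tenascin-C, a TLR4 ligand, went from 11.7 and 12.7 CPM to 3.56 and 2.69 CPM and fell by 1.95 ± 0.20 (adjusted p = 0.00192). Hmgb1, the chromatin protein released from injured cells, rose by 0.91 ± 0.21 (adjusted p = 0.0235). However, 53.0% of its transcript windows occur at several places in the genome, so its count is uncertain, and the call was lost without either control (adjusted p = 0.0862 and 0.152). For the matrix gene Fn1 the log2 fold change was -0.31 ± 0.12 and did not pass (adjusted p = 0.111), but it passed without the second knockout library (-0.43, adjusted p = 0.0367), the one with high meningeal markers.

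**Figure D4:**
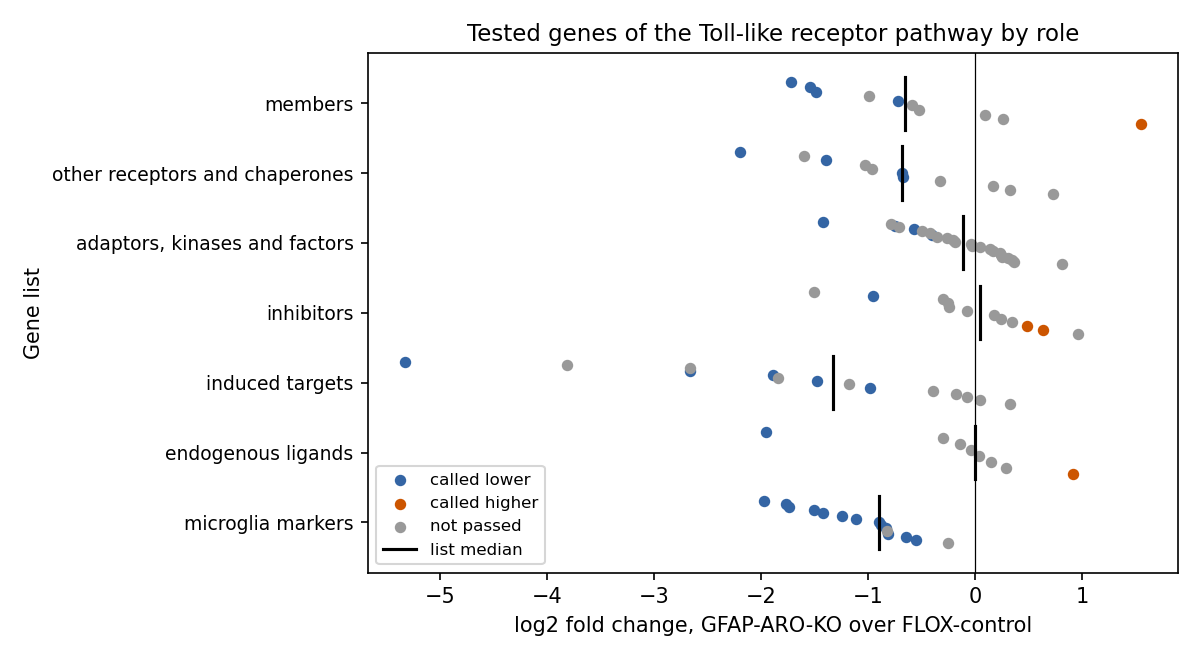
Log2 fold change (x axis) of every tested gene in 7 lists (y axis), blue where called lower, orange where called higher and grey where not passed, with a black line at each list's median. The medians lie at -0.66 for the 10 genes described here, at -1.33 for induced targets and at -0.90 for microglia markers, and the orange point at 1.55 is Tlr7. Some induced targets, such as Ccl2, passed the filter on low counts only through the control reads.

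The genes with the pattern most like the median of the 10, by the root mean square distance of log2 CPM centred over the 4 libraries, were Gm5820 (0.0219), Clec4a2 (0.0229), Oca2 (0.0240), Gap43 (0.0253) and C1qc (0.0265). With 4 libraries this is a description of levels that were higher in both controls, and many genes share it.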

How the data were processed

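The values the authors deposited are raw read counts, with 1 table of gene symbols per library. Per the labels' protocols, total RNA libraries were read as single ends of 50 bp. The submitters' processing notes name TopHat2 2.0.8b, HTSeq and the mm9 build; samples were run in duplicate and reads combined, per the series' design text. No source used here states the strand setting or the annotation. Entries of 5 summary lines without a gene (45.2% to 47.3% of entries, mostly alignments at several places) stayed out of library sizes and tests.

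Groups came from sample titles. Genes were kept by filterByExpr (minimum count 10, minimum total 15), leaving 15011 genes, which were tested with edgeR 4.0.16 under R 4.3.3 (TMM, glmQLFit with robust estimation and legacy=FALSE, glmQLFTest), with Benjamini-Hochberg adjustment over all genes and a threshold of 0.05. SE was taken as |log2 fold change| over the root of the F statistic. Steps were tested on simulated data, with changes placed on genes of at least 1 CPM. Of 50 changes of each size, 52% were recovered at 1.5-fold and 88% at 2-fold. A gene that did not pass may thus still differ. Positions and exon lengths come from GENCODE vM1 on NCBIM37, the assembly of mm9; windows of 50 bases were matched exactly to the genome.

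The members and lists were chosen with earlier results of these data known. Named pathway genes are the 3 with the smallest p and the most abundant of each list by mean CPM, not per length. Tlr6, Tlr8, Prps2, Acaa1a, Cnpy4, Tbk1, Il1a, Il1b and marker genes were named in addition, after their values were seen. Other settings tried were scaling by RLE or upper quartile, dropping the filter or a stricter one (1 CPM in 2 libraries), legacy and non-robust estimation, limma-voom (limma 3.58.1), DESeq2 1.42.0, a block for the replicate number, and leaving out each library.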

Additional observations from a re-analysis of the deposited data

How the results depend on the processing

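Cd14, Ly86, Tlr2 and Tlr3 were called lower and Tlr7 higher under both other scalings, both other filters, legacy and non-robust estimation, limma-voom and DESeq2. With each library left out in turn, 1 to 5 of the 10 genes were called lower and 1 higher; over all genes 570 to 2441 were called lower and 338 to 2375 higher, the smallest counts being without the second control library. The ranges were 0 to 3 lower and 0 to 2 higher for other receptors and chaperones, 0 to 4 lower and 0 to 2 higher for adaptors, kinases and factors, 0 to 1 lower and 0 to 3 higher for inhibitors, 2 to 6 lower for induced targets, and 1 to 3 lower and 0 to 2 higher for endogenous ligands. Those fits leave 1 group with a single library, assumed to vary like the other group. Of the other receptors and chaperones 3 in place of 4 were called lower with RLE or upper-quartile scaling, no filter, non-robust estimation and limma-voom, and 5 with DESeq2. With upper-quartile scaling and with DESeq2, 1 of the other receptors and chaperones was called higher; the cause was not tested. The signs of Tlr4 (-0.19 without the second knockout library) and Ly96 (-0.10 without the first control) turned, over leave-one-out ranges from -0.19 to 0.66 and from -0.10 to 0.32. Ly96 was not kept by the stricter filter.

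The replicate numbers do not pair the libraries as far as the labels say, and the deviations of same-numbered libraries correlated at -0.02 over 15011 genes. With the replicate block 4 of the 10 genes were called lower and 1 higher, and 1745 and 1449 over all genes.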
